A study of Mus musculus with 32 samples.

Results

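The liver makes most of the cholesterol it needs from acetyl-CoA, takes up the rest from lipoproteins, stores the surplus as esters and sends it out to bile and to plasma particles. The gene list described here holds 34 of the 41585 gene rows of each of the 2 count tables. Its members were chosen by gene symbol for their known role in cholesterol synthesis, uptake and efflux. They are 8 enzymes of the mevalonate arm, 11 enzymes of the sterol arm, 4 proteins that control the pathway, 5 genes of uptake and intracellular transport, 2 esterifying enzymes and 4 efflux transporters. All 34 passed the filter on low counts in both sexes.

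Livers of 32 mice were measured by RNA-seq, with 4 mice in each of 8 groups formed by genotype, diet and sex. The labels give the strain as C57BL/6 and the methods as C57Bl/6J, and mice were 10 weeks old at the start. WT mice were bought from a supplier, and Cyp2b-null mice lack Cyp2b9, Cyp2b10 and Cyp2b13, detoxification enzymes that were deleted together with CRISPR/Cas9, so genotype and breeding origin cannot be told apart. Mice of each genotype were fed for 8 weeks either a normal chow diet (ND) or CDAHFD, a diet without added choline in which free L-amino acids replace protein, high in fat (62%) and low in methionine (0.1%), which is used to produce steatohepatitis. The ND differs from the CDAHFD in fat, amino acid source, choline and methionine at once, so their parts cannot be told apart.

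As background, the mevalonate arm builds isoprenoid units from acetyl-CoA, and the sterol arm joins them to squalene, closes the rings to lanosterol and trims lanosterol to cholesterol. When sterols in the endoplasmic reticulum run low, SCAP escorts SREBP-2, the product of Srebf2, to the Golgi, where it is cut to an active factor that binds the promoters of nearly all synthesis genes. INSIG1 and INSIG2 hold SCAP back when sterols are plentiful. Oxysterols, in contrast, activate LXR, which is known to raise the efflux transporters and Mylip, a ligase that removes lipoprotein receptors.

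Library totals ran from 2906411 to 10166959 counts over genes, and levels are given as CPM, a gene's counts divided by its library's TMM-scaled total and set to a common size within each sex. Changes are on the log2 scale, each with a standard error (SE) computed from the change and the F statistic of edgeR's quasi-likelihood test. A gene was called, that is said to rise or fall, at a Benjamini-Hochberg adjusted p-value under 0.05 over all genes tested. The targeted genes followed the labels in females, where Cyp2b9 was counted 683 to 3530 times in each WT library and 2 to 8 times in each Cyp2b-null one. In ND-fed males, Cyp2b9 was nearly absent from WT libraries too, at 0 to 15 counts, and Cyp2b10 told the genotypes apart, with 33 to 97 counts (WT) against 1 to 9 (Cyp2b-null). One library, the CDAHFD-fed Cyp2b-null female replicate 3, stood apart from its group, with a median distance of 0.43 log2 units from the other 3 libraries against 0.192 to 0.288 in the other 31 libraries. The TMM factors that scale the libraries were 0.834 to 0.956 in ND libraries and 0.980 to 1.30 in CDAHFD libraries. Scaling by library size only put the median of all genes in the 4 diet effects at 0.282 to 0.371 log2 units, so every change below is relative to the scaling used.

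Because the labelled tissue is whole liver, fewer cells of a type and less RNA per cell cannot be told apart. All 6 hepatocyte markers were detected, and their summed level had a median of 146000 CPM in ND-fed and 91690 CPM in CDAHFD-fed WT females, and of 116300 and 74900 CPM in WT males. Alb made up most of that sum, at 107200 to 164000 CPM in ND-fed and 63400 to 87980 CPM in CDAHFD-fed WT females. The summed level of 7 macrophage markers moved the other way, from a range of 295.2 to 453.6 CPM to one of 695.5 to 844.8 CPM in WT females and from 124.3 to 231.6 CPM to 509.3 to 1011 CPM in WT males. On CDAHFD, Lyz2 was the largest part of that sum, at 364.2 to 506.7 CPM in WT females and 276.6 to 588.3 CPM in WT males. Of the 7 macrophage markers, the diet raised 4 in WT females and 5 in WT males and lowered 1, the resident macrophage gene Timd4, in both. Summed levels of 6 stellate cell markers went from medians of 246 to 493.9 CPM in WT females and of 149.4 to 405.2 CPM in WT males. Of single markers, 4 of 6 stellate genes rose in WT mice of either sex, 5 of 6 hepatocyte genes fell, and of 4 cholangiocyte genes 1 rose. Of 3 neutrophil markers, S100a8 and S100a9 rose, from 0 to 6 counts in each ND-fed WT library. Ly6g, the other neutrophil marker, had 0 counts in all 32 libraries and was not tested. Of 5 endothelial genes, 2 fell in WT females, and 1 rose and 1 fell in WT males. None of the lymphocyte genes tested was called, and in females only 2 of 5 were tested. Over all genes, the diet effect was called for 24.1% in WT females (13.9% higher, 10.2% lower) and for 33% in WT males (18% higher, 15% lower). The part of these shifts in the results below was not tested.

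The promoters of the pathway share short sequences, and 6 are shown. All 6 carry the letters that NF-Y, the usual partner of SREBP, is known to read. RefSeq promoters of GRCm38.p6, from 250 bases before to 50 bases after each start, were matched for 27 of the 34 genes, and no promoter was matched for Soat2, Sqle, Fdft1, Fdps, Abcg1, Stard4 and Npc1. Each sequence runs 5′ to 3′ on the strand of its gene, and capitals mark matches on either strand. CCAAT is the NF-Y box and appears as ATTGG where it lies on the other strand. The other capitals are the sterol element TCACNCCAC and the E-box, written as CACGTG. Of the 6, only Hmgcs1 holds the sterol element, and only Sc5d and Insig1 hold the E-box. Mvd, Nsdhl and Mvk hold CCAAT alone. The 6 stretches lie before the start, at chr13:119690151-119690350 on the plus strand (Hmgcs1), chr8:122443423-122443622 on the minus strand (Mvd), chrX:72918321-72918520 on the plus strand (Nsdhl), chr9:42264301-42264500 on the minus strand (Sc5d), chr5:114444069-114444268 on the plus strand (Mvk) and chr5:28071162-28071361 on the plus strand (Insig1).
Hmgcs1: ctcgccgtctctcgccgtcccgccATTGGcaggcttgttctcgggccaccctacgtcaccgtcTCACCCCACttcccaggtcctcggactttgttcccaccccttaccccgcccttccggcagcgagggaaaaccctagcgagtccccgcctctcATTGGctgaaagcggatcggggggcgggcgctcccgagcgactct
Mvd: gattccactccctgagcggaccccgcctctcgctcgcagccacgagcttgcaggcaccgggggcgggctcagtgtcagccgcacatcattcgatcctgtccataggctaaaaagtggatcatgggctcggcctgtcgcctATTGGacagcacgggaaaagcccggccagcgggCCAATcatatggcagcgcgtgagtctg
Nsdhl: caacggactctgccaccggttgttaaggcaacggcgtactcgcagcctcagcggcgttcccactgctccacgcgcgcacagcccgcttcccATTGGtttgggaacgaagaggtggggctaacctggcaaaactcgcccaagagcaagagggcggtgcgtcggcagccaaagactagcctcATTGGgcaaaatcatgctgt
Sc5d: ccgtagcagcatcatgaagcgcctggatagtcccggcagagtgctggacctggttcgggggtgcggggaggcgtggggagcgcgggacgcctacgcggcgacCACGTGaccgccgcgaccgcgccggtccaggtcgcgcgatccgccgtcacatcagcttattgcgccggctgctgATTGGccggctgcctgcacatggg
Mvk: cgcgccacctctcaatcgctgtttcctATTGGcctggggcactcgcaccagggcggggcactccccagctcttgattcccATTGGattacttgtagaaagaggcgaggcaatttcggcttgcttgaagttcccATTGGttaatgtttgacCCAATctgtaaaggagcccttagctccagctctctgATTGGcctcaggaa
Insig1: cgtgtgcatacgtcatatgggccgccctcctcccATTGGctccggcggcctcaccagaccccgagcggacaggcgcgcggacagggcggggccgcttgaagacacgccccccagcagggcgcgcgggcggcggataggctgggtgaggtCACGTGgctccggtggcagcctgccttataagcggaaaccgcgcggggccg
A gene was counted if any of its promoters held a match. CCAAT was present in 15 of the 16 synthesis genes with a promoter (93.8%) and in 41.1% of all 27025 genes. At least 2 matches in 1 promoter were held by 10 of the 16 (62.5%), against 13.3% of all. The sterol element in this strict form was found in Hmgcs1 alone (1.44% of all genes), and the E-box in 3 of the 16 (18.8%, against 8.09% of all). The LXR element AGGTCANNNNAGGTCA was found in 0 of the 27 genes and in 0.0148% of all. The number of matches in the whole window did not order the diet effects described next: Mvk, with 5, and Ggps1, with 3, were called in 0 of the 4 diet comparisons, whereas Nsdhl, with 4, and Sc5d, with 1, fell in all 4.

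What the diet did to the list was asked first. In WT females, 24 of the 34 genes were called on CDAHFD, 22 lower and 2 higher, where 24.1% of all 13226 genes were called (10.2% lower, 13.9% higher). In Cyp2b-null females, 25 fell and 3 rose, against 30.8% of all genes called (13.9% lower, 16.9% higher). In WT males, 14 fell and 3 rose, against 33% of 13460 genes (15% lower, 18% higher). In Cyp2b-null males, 17 fell and 4 rose, against 37.4% (17.1% lower, 20.3% higher). With this scaling, the share of the list that fell was above the background in each comparison, and the share that rose was below it. With scaling by library size only, the split in females was 19 lower and 4 higher in both genotypes, while in males it turned to 6 lower and 10 higher in WT and to 9 lower and 9 higher in Cyp2b-null mice. No gene called under one scaling was called in the opposite direction under the other. Without the CDAHFD-fed Cyp2b-null female replicate 3, 24 genes fell and 4 rose in Cyp2b-null females, and 27 of the 28 calls made with it were kept. The shares over all genes given above are those of the fit with TMM scaling and all libraries. None are given for these alternative fits, so their counts are not set against a background.

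Libraries of the diets did not overlap for 19 (WT) and 23 (Cyp2b-null) of the 34 genes in females, where this held for 25.8% and 30.6% of all genes, and for 15 and 18 of the 34 in males, where it held for 28.4% and 36.8%. Across these 4 comparisons, 12 genes fell in every one: the synthesis enzymes Acat2, Pmvk, Fdps, Tm7sf2, Nsdhl, Hsd17b7, Ebp and Sc5d, the control genes Scap and Insig1, the sterol carrier Stard4 and the biliary transporter Abcg5. Only Soat1 and Abcg1 rose in every one. Mvk, Ggps1, Srebf2, Insig2, Lipa and Soat2 were called in none. Mylip was called in both directions, lower in Cyp2b-null females and higher in Cyp2b-null males.

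**Figure D1:**
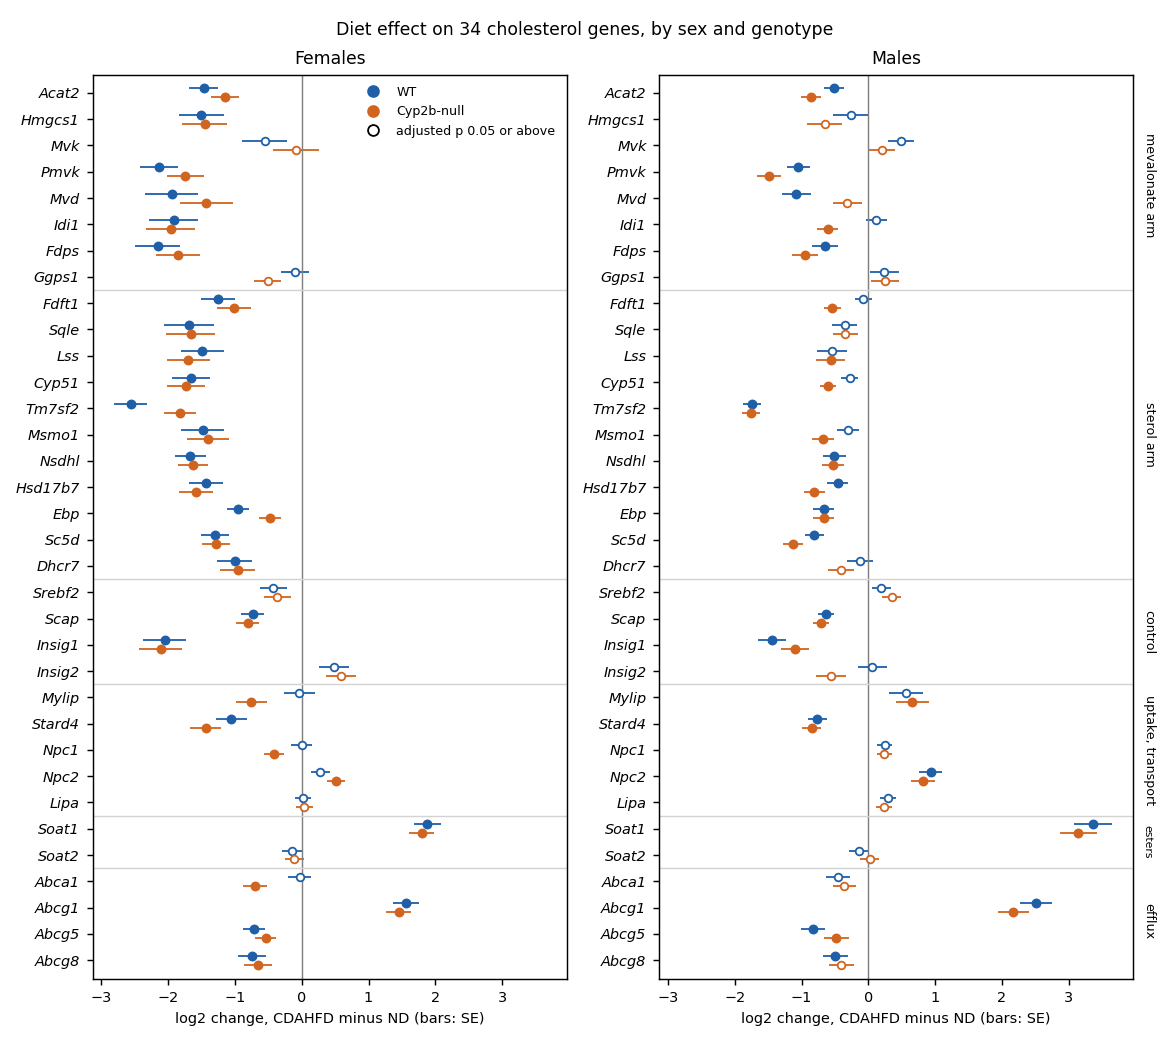
Log2 change of the 34 genes on CDAHFD relative to ND in females (left) and males (right), with WT in blue, Cyp2b-null in orange, bars for the SE, and open points for an adjusted p of 0.05 or above. In females 17 of the 19 synthesis enzymes fell in either genotype, in males 9 (WT) and 13 (Cyp2b-null), and Soat1 and Abcg1 lie to the right in both panels.

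The synthesis enzymes were the main body of the fall. In females 17 of 19 fell in WT and 17 of 19 in Cyp2b-null mice, with a median log2 change of -1.49 and -1.45 over the 19, beside a median of -0.00215 and 0.0273 over all genes. In males 9 of 19 fell in WT and 13 of 19 in Cyp2b-null mice, with medians of -0.46 and -0.61 beside -0.0228 and -0.00832. None rose in the edgeR fit, and Mvk was called higher in WT males by DESeq2 and without the low-count filter. Without ND-fed WT male replicate 2, the library with the highest synthesis levels of its group, the median in WT males was -0.22. With scaling by library size only, 17 (WT) and 16 (Cyp2b-null) of the 19 still fell in females, but in males 4 fell and 3 rose in WT and 6 fell and 2 rose in Cyp2b-null mice. In that scaling, 16 of the 19 in WT males and 17 of the 19 in Cyp2b-null males lay below the median of all genes, as in the TMM fit.

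The mean log2 CPM of the 19 enzymes shows the same in single libraries. It was 6.80, 6.21, 7.44 and 7.35 in ND-fed WT females and 5.85, 5.14, 5.82 and 5.29 in CDAHFD-fed WT females. ND-fed Cyp2b-null females had 7.25, 6.19, 7.003 and 7.21, and CDAHFD-fed ones 5.42, 5.81, 5.59 and 5.66. The diets did not overlap in either genotype, but replicate 2 lay far below the rest in both ND groups, lowest of its group for 17 of 19 enzymes in WT and 18 of 19 in Cyp2b-null mice. In males the means were 6.58, 6.93, 6.75 and 6.67 for ND-fed WT and 6.49, 6.23, 6.24 and 6.23 for CDAHFD-fed WT mice. They were 6.85, 6.68, 7.02 and 6.52 for ND-fed and 6.03, 6.31, 6.04 and 6.10 for CDAHFD-fed Cyp2b-null mice. Again the diets did not overlap, although in WT males the gap between the nearest libraries was from 6.49 to 6.58.

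**Figure D2:**
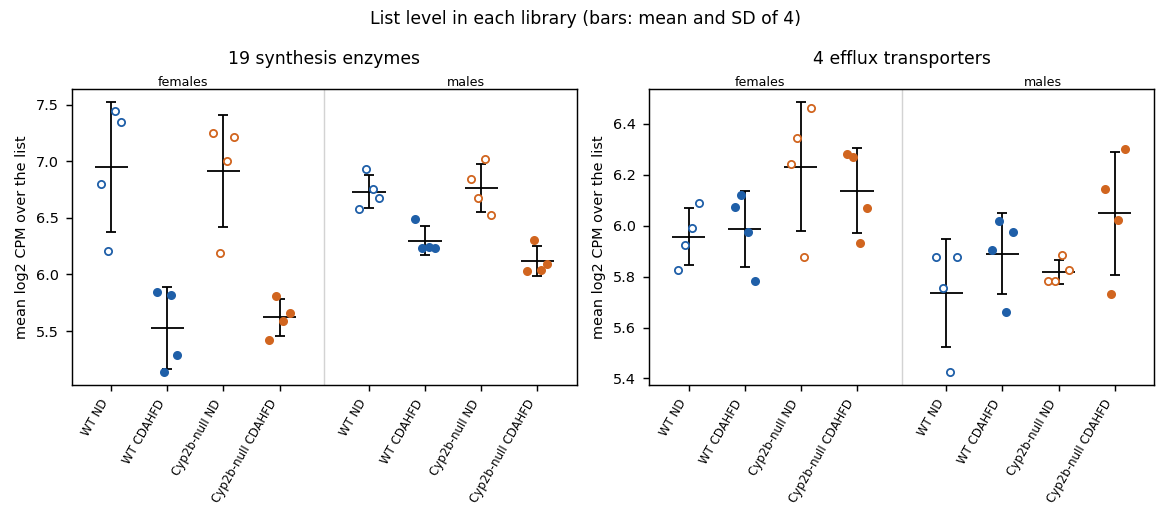
Mean log2 CPM over the 19 synthesis enzymes (left) and the 4 efflux transporters (right) in each library, with open points for ND, filled points for CDAHFD, WT in blue, Cyp2b-null in orange, and bars for the mean and SD of 4. Synthesis levels on CDAHFD lie below those on ND in all 4 pairs of groups, and ND-fed females span 6.19 to 7.44; efflux levels overlap between diets.

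In the mevalonate arm, Acat2, Pmvk and Fdps fell in all 4 comparisons, and Mvd in 3. Pmvk, the kinase that adds the second phosphate to mevalonate, read 70.2, 42.1, 109 and 95.9 CPM in ND-fed WT females and 20.5, 13.6, 22.1 and 15.8 CPM on CDAHFD. Cyp2b-null females had 104, 41.6, 76.4 and 78.1 CPM on ND and 15.8, 22.2, 30.5 and 20.3 CPM on CDAHFD. The diets did not overlap, and the log2 change was -2.14 (SE 0.28, adjusted p 1.10e-05) in WT and -1.74 (SE 0.28, adjusted p 7.20e-05) in Cyp2b-null females. WT males had 47.6, 59.7, 78.2 and 44.6 CPM on ND and 32.7, 23.5, 23.7 and 31.8 CPM on CDAHFD. Cyp2b-null males had 47.8, 58.8, 67.1 and 50.6 CPM and 16.6, 21.9, 20.7 and 20.2 CPM. Every CDAHFD library again lay below every ND library of its group, with log2 changes of -1.05 (SE 0.17, adjusted p 7.30e-05) and -1.49 (SE 0.18, adjusted p 9.78e-07).

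Fdps, farnesyl diphosphate synthase, had 134, 62.7, 232 and 200.3 CPM in ND-fed and 43.7, 20.1, 49.0 and 28.4 CPM in CDAHFD-fed WT females. Cyp2b-null females had 168, 78.9, 151 and 167 CPM and 30.4, 33.4, 56.99 and 35.1 CPM. Each CDAHFD library lay below each ND library, and the gene fell by 2.16 (SE 0.34, adjusted p 7.23e-05) and 1.85 (SE 0.33, adjusted p 0.000285) on the log2 scale. WT males had 104, 158, 126 and 112 CPM on ND and 95.9, 65.7, 73.6 and 83.9 CPM on CDAHFD. Cyp2b-null males had 131, 108, 148 and 110.5 CPM and 45.9, 96.2, 62.5 and 52.7 CPM. The fall in males was 0.65 (SE 0.19, adjusted p 0.0116) in WT and 0.95 (SE 0.19, adjusted p 0.000494) in Cyp2b-null mice, also without overlap. The annotation puts 26.7% of the exon bases of Fdps under another gene model, and since neither the strand setting nor the treatment of shared reads is stated, its counts are uncertain to that extent.

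Mvd, which makes isopentenyl diphosphate, read 36.6, 18.3, 58.6 and 60.6 CPM in ND-fed and 18.1, 5.34, 14.3 and 7.89 CPM in CDAHFD-fed WT females. Cyp2b-null females had 55.5, 11.6, 37.8 and 31.2 CPM and 10.4, 10.7, 15.9 and 12.4 CPM, overlapping, with ND-fed replicate 2 at 11.6 CPM. The gene fell in both, by 1.95 (SE 0.40, adjusted p 0.00109) and 1.43 (SE 0.40, adjusted p 0.00957). In WT males it read 24.6, 39.7, 43.4 and 58.0 CPM on ND and 24.4, 16.4, 18.9 and 18.5 CPM on CDAHFD, and fell by 1.08 (SE 0.21, adjusted p 0.000509). Cyp2b-null males had 29.6, 18.1, 27.9 and 18.5 CPM and 16.3, 19.3, 18.6 and 22.6 CPM. These overlapped, and the change of -0.32 (SE 0.22) did not pass the test (adjusted p 0.272).

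Acat2, the cytosolic thiolase of the first step, had 110.2, 95.1, 193 and 178 CPM in ND-fed and 60.5, 47.5, 53.9 and 46.7 CPM in CDAHFD-fed WT females. Cyp2b-null females had 163, 85.1, 163 and 149 CPM and 61.8, 61.5, 68.2 and 61.2 CPM. Neither pair overlapped, and the log2 changes were -1.47 (SE 0.21, adjusted p 3.10e-05) and -1.15 (SE 0.21, adjusted p 0.00034). WT males had 102, 94.0, 100.5 and 92.1 CPM on ND and 80.4, 77.2, 61.1 and 53.6 CPM on CDAHFD. Cyp2b-null males had 87.4, 98.8, 143 and 115 CPM and 57.6, 72.4, 54.4 and 60.4 CPM. The smaller falls of 0.51 (SE 0.15, adjusted p 0.0119) and 0.86 (SE 0.15, adjusted p 0.000123) were called without overlap. Acat2 has a near-identical neighbor, Acat3, and counts could be split between them.

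Idi1, the isomerase that readies isoprenoid units for joining, fell in 3 comparisons and did not pass in WT males. It read 47.4, 30.8, 84.4 and 77.4 CPM in ND-fed and 24.3, 10.4, 17.2 and 12.1 CPM in CDAHFD-fed WT females. Cyp2b-null females had 71.0, 35.5, 39.8 and 96.4 CPM and 17.1, 23.2, 7.39 and 14.9 CPM. Both pairs were apart, with changes of -1.92 (SE 0.37, adjusted p 0.000517) and -1.96 (SE 0.36, adjusted p 0.00034). WT males had 38.0, 40.1, 35.0 and 33.5 CPM on ND and 44.6, 38.1, 40.8 and 36.2 CPM on CDAHFD, an overlap with a change of 0.12 (SE 0.16, adjusted p 0.591). Cyp2b-null males had 44.3, 36.0, 55.3 and 36.6 CPM and 30.5, 32.6, 29.5 and 19.4 CPM, and the fall of 0.61 (SE 0.16) was called (adjusted p 0.00372).

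Of the remaining mevalonate genes, Hmgcs1, which makes HMG-CoA, fell in females by 1.502 (SE 0.33, WT) and 1.45 (SE 0.33, Cyp2b-null). An unnamed gene model overlaps 12.1% of its exon bases. Its changes in males, -0.26 (SE 0.26) and -0.65 (SE 0.27), did not pass (adjusted p 0.486 and 0.0585). Mvk, mevalonate kinase, had changes from -0.55 (WT females) to 0.49 (WT males), and Ggps1, which makes the longer geranylgeranyl diphosphate used outside sterol synthesis, from -0.51 (Cyp2b-null females) to 0.25 (Cyp2b-null males). None of these 8 values passed the test.

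All 11 sterol arm enzymes fell in females of both genotypes, and 5 (WT) and 9 (Cyp2b-null) fell in males. Tm7sf2, a sterol reductase that acts after lanosterol, had the largest fall of the 34 genes in WT females and in males of both genotypes. It stood at 201, 129, 258 and 313 CPM in ND-fed and 46.6, 33.96, 46.3 and 26.1 CPM in CDAHFD-fed WT females. Cyp2b-null females had 216, 143, 224 and 159 CPM and 49.8, 56.4, 63.3 and 40.0 CPM. The log2 changes were -2.56 (SE 0.25, adjusted p 2.27e-07) and -1.82 (SE 0.24, adjusted p 9.65e-06). WT males had 206, 283, 251 and 242 CPM on ND and 94.2, 63.4, 67.2 and 68.9 CPM on CDAHFD. Cyp2b-null males had 238, 244, 243 and 209.5 CPM and 72.8, 73.5, 56.2 and 75.2 CPM. The changes were -1.74 (SE 0.14, adjusted p 8.61e-09) and -1.75 (SE 0.14, adjusted p 5.60e-09), and no CDAHFD library reached an ND library in any of the 4 pairs. On the same strand, 12.1% of its exon bases overlap Vps51.

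Sc5d, a desaturase of the last steps, read 881, 597, 1287 and 1046 CPM in ND-fed and 455, 346, 453 and 295 CPM in CDAHFD-fed WT females. Cyp2b-null females had 1016, 683, 1159 and 975 CPM and 407, 438, 330.4 and 396 CPM. It fell by 1.299 (SE 0.21, adjusted p 7.80e-05) and 1.29 (SE 0.21, adjusted p 7.95e-05). WT males had 521, 807, 631 and 638 CPM on ND and 456, 347, 319.8 and 361 CPM on CDAHFD. Cyp2b-null males had 722, 645, 722 and 694 CPM and 273, 359.5, 280.1 and 359 CPM. The falls of 0.81 (SE 0.14, adjusted p 0.000185) and 1.13 (SE 0.15, adjusted p 3.08e-06) again left the diets apart, and this held in all 4 pairs.

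Nsdhl, the X-linked dehydrogenase that helps strip methyl groups from the sterol, read 78.8, 70.5, 125 and 128 CPM in ND-fed and 35.7, 21.3, 40.2 and 29.6 CPM in CDAHFD-fed WT females. Cyp2b-null females had 128, 71.9, 89.3 and 135 CPM and 28.6, 36.0, 36.6 and 36.1 CPM. It fell by 1.67 (SE 0.23, adjusted p 1.61e-05) and 1.62 (SE 0.23, adjusted p 1.90e-05), without overlap. WT males had 82.4, 61.8, 94.9 and 71.9 CPM on ND and 65.7, 47.7, 48.2 and 57.3 CPM on CDAHFD. Cyp2b-null males had 53.8, 72.5, 99.0 and 79.3 CPM and 44.0, 57.8, 53.9 and 54.4 CPM. The diets overlapped in males, where the falls were 0.51 (SE 0.17, adjusted p 0.0235) and 0.53 (SE 0.17, adjusted p 0.0165).

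Cyp51, the lanosterol demethylase, had 263, 219, 446 and 427 CPM in ND-fed and 137, 71.5, 138 and 82.0 CPM in CDAHFD-fed WT females. Cyp2b-null females had 422, 193, 354 and 510.4 CPM and 84.4, 138, 96.8 and 125 CPM. The diets were apart, and the gene fell by 1.66 (SE 0.28, adjusted p 0.000169) and 1.73 (SE 0.28, adjusted p 0.000105). WT males had 288, 367, 293 and 363 CPM on ND and 298, 254, 276 and 249.7 CPM on CDAHFD, with overlap and a change of -0.28 (SE 0.13, adjusted p 0.0941). Cyp2b-null males had 338, 312, 412 and 322 CPM and 239, 262, 204 and 206 CPM, apart from each other, with a fall of 0.60 (SE 0.13, adjusted p 0.000686).

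Squalene is made by Fdft1 and oxidized by Sqle. Fdft1 read 191, 104, 289 and 236 CPM in ND-fed and 109, 78.6, 93.7 and 63.0 CPM in CDAHFD-fed WT females. Cyp2b-null females had 248, 125, 243 and 232 CPM and 84.6, 103, 121 and 109 CPM. It fell by 1.26 (SE 0.25, adjusted p 0.000851) and 1.02 (SE 0.25, adjusted p 0.00409), and WT replicate 2 on ND lay inside the CDAHFD range. WT males had 128, 173, 154 and 149.8 CPM on ND and 148, 145, 144 and 136 CPM on CDAHFD, a change of -0.078 (SE 0.13, adjusted p 0.681). Cyp2b-null males had 194, 161, 205 and 139.5 CPM and 118, 139, 116 and 110.1 CPM, a fall of 0.54 (SE 0.13, adjusted p 0.00198). The exons of Fdft1 overlap those of Ctsb on the other strand over 18.3% of their bases.

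Sqle, squalene epoxidase, stood at 95.8, 56.5, 173 and 169.7 CPM in ND-fed and 50.9, 17.9, 52.1 and 33.4 CPM in CDAHFD-fed WT females. Cyp2b-null females had 176, 47.5, 119 and 160.3 CPM and 30.4, 50.5, 34.6 and 42.2 CPM, where ND-fed replicate 2 lay below 1 CDAHFD library. The falls were 1.69 (SE 0.37, adjusted p 0.00194) and 1.66 (SE 0.37, adjusted p 0.00185). WT males had 101, 166, 108 and 146 CPM on ND and 109.5, 105, 103 and 89.5 CPM on CDAHFD. Cyp2b-null males had 165, 112, 148 and 83.9 CPM and 90.5, 125, 89.1 and 97.2 CPM. The diets overlapped in males, and the changes of -0.36 (SE 0.18) and -0.34 (SE 0.18) did not pass (adjusted p 0.149 and 0.155).

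Among the rest of the sterol arm, Hsd17b7 and Ebp fell in all 4 comparisons, Hsd17b7 by 0.46 (WT males) to 1.58 (Cyp2b-null females) and Ebp by 0.48 (Cyp2b-null females) to 0.95 (WT females). Lss, the cyclase that forms lanosterol, and Msmo1 fell in females and in Cyp2b-null males, with Lss at -1.70 and -0.56 and Msmo1 at -1.403 and -0.68 in Cyp2b-null mice. The call of Lss in Cyp2b-null males (adjusted p 0.0475) was lost without CDAHFD-fed Cyp2b-null male replicate 4 (adjusted p 0.106). Dhcr7, the last reductase, fell in females by 1.005 (WT) and 0.96 (Cyp2b-null), and its male changes of -0.13 and -0.41 did not pass (adjusted p 0.655 and 0.0993).

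Among the control genes, Insig1 and Scap fell in all 4 comparisons. Insig1, itself a target of SREBP in textbook accounts, had 786, 292, 699 and 632 CPM in ND-fed and 189, 98.2, 199 and 93.9 CPM in CDAHFD-fed WT females. Cyp2b-null females had 913, 365, 924 and 424 CPM and 129.5, 151, 139 and 185 CPM. The log2 changes were -2.06 (SE 0.33, adjusted p 8.16e-05) and -2.12 (SE 0.33, adjusted p 5.55e-05). WT males had 539.5, 871, 699.7 and 894 CPM on ND and 397, 249, 215 and 242 CPM on CDAHFD. Cyp2b-null males had 750.5, 522, 459.6 and 443 CPM and 259.9, 291, 185 and 279.6 CPM. The changes of -1.45 (SE 0.21, adjusted p 2e-05) and -1.10 (SE 0.21, adjusted p 0.000288) left no overlap between diets in any pair.

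Scap, the escort protein, whose exons share 13.2% of their bases with another model, had 135, 147, 144 and 218 CPM in ND-fed and 100.1, 95.1, 115 and 77.8 CPM in CDAHFD-fed WT females. Cyp2b-null females had 129.9, 149, 181 and 204 CPM and 107, 104, 86.4 and 83.2 CPM. Its falls of 0.73 (SE 0.17, adjusted p 0.00331) and 0.81 (SE 0.17, adjusted p 0.00134) were smaller than those of Insig1. WT males had 177, 257, 202 and 225 CPM on ND and 140.1, 140.2, 139 and 135 CPM on CDAHFD. Cyp2b-null males had 230.5, 214, 211 and 182 CPM and 146, 118, 112 and 138 CPM. The falls were 0.63 (SE 0.12, adjusted p 0.000427) and 0.71 (SE 0.12, adjusted p 0.000112), with the diets apart in all 4 pairs. Srebf2, the gene of the transcription factor itself, had changes of -0.43 and -0.37 in WT and Cyp2b-null females and 0.19 and 0.35 in males, none of them called (adjusted p 0.134, 0.179, 0.33 and 0.0573). Insig2 was likewise not called, with 0.49 and 0.58 in females and 0.061 and -0.56 in males (adjusted p 0.129, 0.0554, 0.862 and 0.0523).

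**Figure D3:**
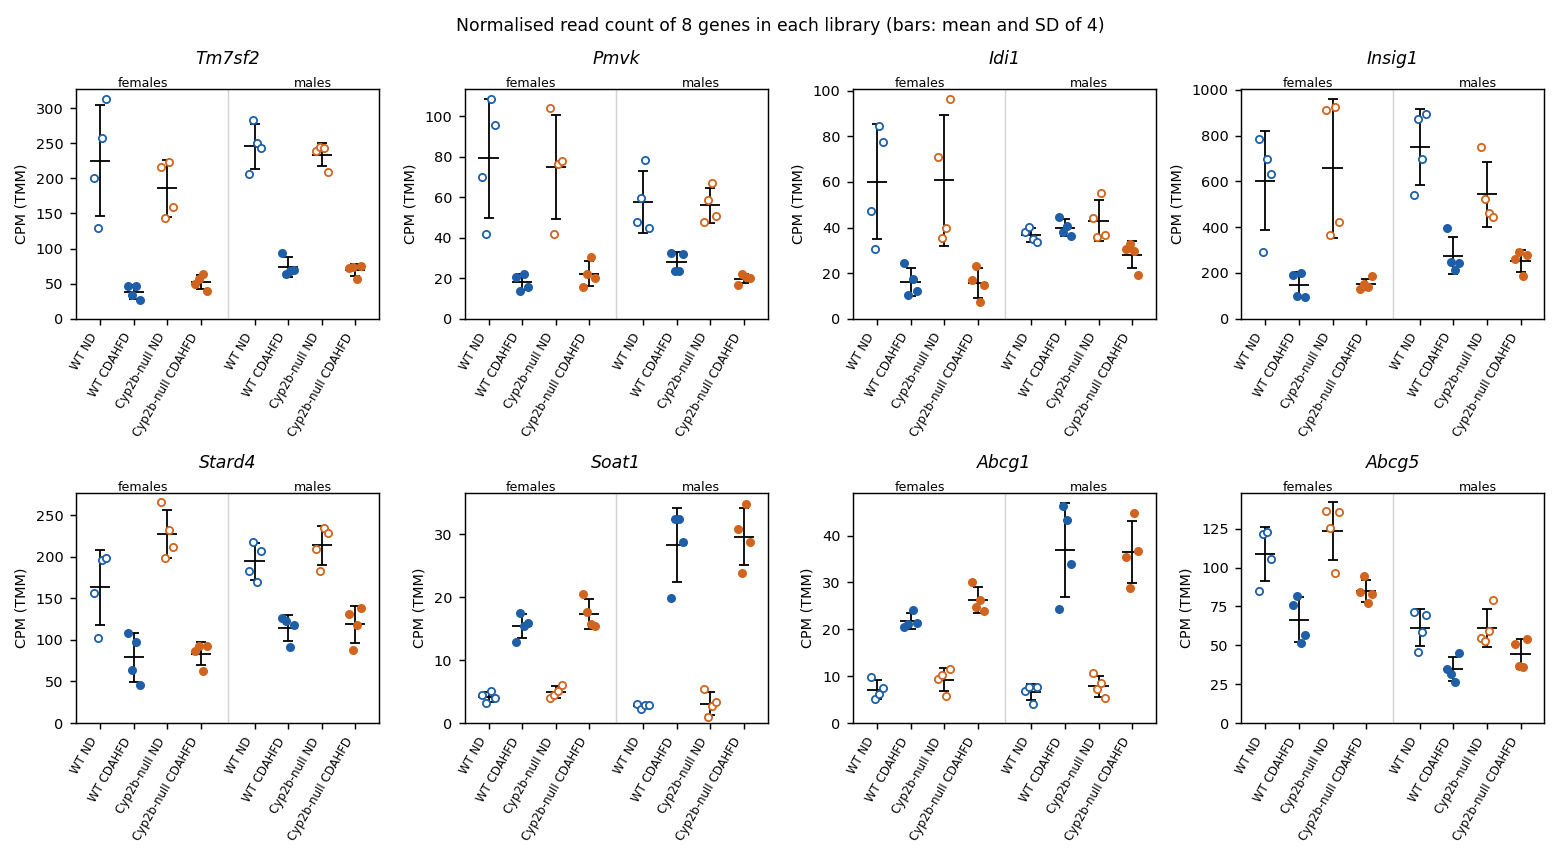
CPM of 8 of the genes in each of the 32 libraries, females left and males right in each panel, with open points for ND, filled points for CDAHFD, WT in blue, Cyp2b-null in orange, and bars for the mean and SD of 4. Tm7sf2, Pmvk and Insig1 are lower on CDAHFD in all 4 pairs, Idi1 overlaps in WT males, and Soat1 and Abcg1 are higher on CDAHFD in all 4 pairs.

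Uptake and intracellular transport did not move as 1 group. Stard4, which carries sterol between membranes, fell in all 4 comparisons. It had 156, 102, 196 and 198 CPM in ND-fed and 109, 63.5, 97.4 and 45.9 CPM in CDAHFD-fed WT females. Cyp2b-null females had 265, 198, 232 and 212 CPM and 86.2, 92.4, 62.8 and 92.4 CPM. The changes were -1.05 (SE 0.23, adjusted p 0.00182), with an overlap of the diets, and -1.44 (SE 0.23, adjusted p 8.38e-05), with none. WT males had 182, 217, 169.8 and 207 CPM on ND and 126, 123, 91.0 and 118 CPM on CDAHFD. Cyp2b-null males had 209, 183, 235 and 228 CPM and 131, 88.2, 118 and 138 CPM. The changes were -0.76 (SE 0.14, adjusted p 0.00028) and -0.85 (SE 0.14, adjusted p 7.12e-05), without overlap.

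Npc2, which binds cholesterol inside the lysosome, rose in 3 comparisons. It read 106, 100.5, 137 and 117 CPM in ND-fed and 125, 136, 148 and 151 CPM in CDAHFD-fed WT females, a change of 0.28 (SE 0.14) that did not pass (adjusted p 0.151). Cyp2b-null females had 115, 105, 99.1 and 109.5 CPM and 141, 138, 194 and 137 CPM, a rise of 0.51 (SE 0.14, adjusted p 0.00768). The diets overlapped in WT and were apart in Cyp2b-null females. WT males had 71.5, 48.0, 83.5 and 61.4 CPM on ND and 95.9, 120.1, 144 and 145 CPM on CDAHFD. Cyp2b-null males had 69.5, 62.2, 81.4 and 87.2 CPM and 115, 108, 168 and 136 CPM. Here Npc2 rose by 0.93 (SE 0.18, adjusted p 0.000325) and 0.82 (SE 0.18, adjusted p 0.000898), without overlap.

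Its partner Npc1, the lysosomal membrane exporter, had 132, 151, 168 and 214 CPM in ND-fed and 173, 183, 167 and 142 CPM in CDAHFD-fed WT females, a change of -0.0012 (SE 0.15, adjusted p 0.997). Cyp2b-null females had 209, 248, 203 and 208 CPM and 172, 189, 125 and 165 CPM, and the fall of 0.41 (SE 0.15) passed (adjusted p 0.0466) but did not pass without CDAHFD-fed replicate 3, the lowest library (adjusted p 0.122). WT males had 186, 172, 166 and 206 CPM on ND and 206, 251, 186 and 221 CPM on CDAHFD. Cyp2b-null males had 196, 193, 191 and 165 CPM and 234, 217, 214 and 213 CPM. The male changes of 0.24 (SE 0.11) and 0.24 (SE 0.11) did not pass (adjusted p 0.101 and 0.102), although the diets did not overlap in Cyp2b-null males.

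Mylip was a low-abundance gene. It had 12.4, 13.6, 17.3 and 13.7 CPM in ND-fed and 15.2, 12.1, 19.9 and 8.38 CPM in CDAHFD-fed WT females. Cyp2b-null females had 17.3, 18.4, 14.8 and 17.9 CPM and 13.5, 10.5, 6.49 and 10.6 CPM. The change was -0.034 (SE 0.23, adjusted p 0.941) in WT and -0.76 (SE 0.23, adjusted p 0.0172) in Cyp2b-null females, where the diets did not overlap. WT males had 9.78, 8.62, 8.75 and 6.44 CPM on ND and 6.72, 11.7, 13.5 and 17.6 CPM on CDAHFD. Cyp2b-null males had 10.4, 8.72, 6.42 and 10.5 CPM and 13.4, 9.84, 17.3 and 16.97 CPM. The changes were 0.56 (SE 0.25, adjusted p 0.0976) and 0.66 (SE 0.25, adjusted p 0.0418) with overlap in both, and the call in Cyp2b-null males was lost without their CDAHFD-fed replicate 4 (adjusted p 0.0999).

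Lipa, the acid lipase that frees cholesterol from lipoprotein esters, was not called in any comparison. It had 314, 289, 282 and 297 CPM in ND-fed and 283, 273, 322 and 321 CPM in CDAHFD-fed WT females. Cyp2b-null females had 304, 287, 320.2 and 319.6 CPM and 337, 346, 246 and 336 CPM. The 95% intervals of the log2 change were -0.25 to 0.29 and -0.23 to 0.31. WT males had 273, 335, 299 and 341 CPM on ND and 338, 435, 399 and 361 CPM on CDAHFD. Cyp2b-null males had 295, 361, 333 and 308 CPM and 352, 356, 403 and 414 CPM. The changes of 0.30 and 0.23 had adjusted p 0.0553 and 0.123, and the diets overlapped in all 4 pairs.

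The 2 esterifying enzymes parted. Soat1, the widely expressed form that is abundant in macrophages, read 4.40, 3.12, 5.08 and 3.98 CPM in ND-fed and 12.9, 17.5, 15.4 and 15.9 CPM in CDAHFD-fed WT females. Cyp2b-null females had 3.94, 4.41, 5.07 and 6.08 CPM and 20.5, 17.6, 15.7 and 15.4 CPM. It rose 3.68-fold (log2 1.88, SE 0.20, adjusted p 9.02e-07) and 3.47-fold (log2 1.79, SE 0.19, adjusted p 8.45e-07). WT males had 3.08, 2.28, 2.83 and 2.79 CPM on ND and 19.8, 32.3, 32.4 and 28.7 CPM on CDAHFD. Cyp2b-null males had 5.36, 0.895, 2.69 and 3.27 CPM and 30.8, 23.9, 34.8 and 28.7 CPM. The rises were 10.3-fold (log2 3.36, SE 0.28, adjusted p 1.52e-08) and 8.86-fold (log2 3.15, SE 0.27, adjusted p 1.85e-08), the largest of the list, and no CDAHFD library came down to an ND library. ND levels rest on few reads, 8 to 36 counts in females and 4 to 49 in males. Macrophage marker sums moved with Soat1, also in Cyp2b-null mice, from 292.5 to 423.1 CPM on ND to 695.5 to 1146 CPM on CDAHFD in females and from 129 to 174.2 CPM to 675.7 to 1191 CPM in males, and their part was not tested.

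Soat2, the form of hepatocytes and enterocytes, had 66.8, 45.2, 71.9 and 61.1 CPM in ND-fed and 58.9, 63.8, 52.7 and 46.7 CPM in CDAHFD-fed WT females. Cyp2b-null females had 56.8, 63.9, 65.5 and 63.0 CPM and 59.2, 48.8, 67.5 and 55.4 CPM. The changes of -0.15 and -0.11 had 95% intervals of -0.47 to 0.17 and -0.43 to 0.21. WT males had 47.6, 32.2, 47.1 and 41.0 CPM on ND and 33.8, 37.9, 34.9 and 46.0 CPM on CDAHFD. Cyp2b-null males had 38.6, 40.7, 38.3 and 41.4 CPM and 37.3, 47.6, 34.04 and 42.4 CPM. The intervals were -0.45 to 0.17 and -0.29 to 0.33, so a change of 1 log2 unit in either direction lies outside all 4, and the diets overlapped throughout.

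Efflux also parted. The median log2 change of the 4 transporters was -0.37 and -0.60 in WT and Cyp2b-null females and -0.47 and -0.38 in WT and Cyp2b-null males, and 1 member rose in each comparison while 2, 3, 2 and 1 fell. Abcg1, which loads cholesterol onto HDL particles and is prominent in macrophages, was the one that rose. It had 9.80, 5.07, 6.10 and 7.45 CPM in ND-fed and 20.5, 21.1, 24.2 and 21.3 CPM in CDAHFD-fed WT females. Cyp2b-null females had 9.41, 10.2, 5.85 and 11.5 CPM and 30.1, 24.7, 26.1 and 23.9 CPM. It rose 2.95-fold (log2 1.56, SE 0.20, adjusted p 6.44e-06) and 2.73-fold (log2 1.45, SE 0.19, adjusted p 8.29e-06). WT males had 6.88, 7.64, 4.04 and 7.73 CPM on ND and 24.3, 46.2, 43.3 and 33.9 CPM on CDAHFD. Cyp2b-null males had 10.6, 7.16, 8.49 and 5.23 CPM and 35.4, 28.7, 44.9 and 36.8 CPM. The rises were 5.70-fold (log2 2.51, SE 0.24, adjusted p 9.53e-08) and 4.50-fold (log2 2.17, SE 0.23, adjusted p 3.21e-07), with the diets apart in all 4 pairs and the macrophage markers moving the same way.

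Abcg5 and Abcg8 form 1 transporter that passes sterols into bile, and their genes lie head to head on chromosome 17. Abcg5 read 85.2, 122, 123 and 106 CPM in ND-fed and 75.8, 81.5, 51.5 and 56.7 CPM in CDAHFD-fed WT females. Cyp2b-null females had 136, 125, 96.7 and 136 CPM and 84.1, 94.9, 77.5 and 83.3 CPM. It fell by 0.71 (SE 0.16, adjusted p 0.00258) and 0.54 (SE 0.16, adjusted p 0.0139), without overlap. WT males had 71.7, 46.0, 58.3 and 69.5 CPM on ND and 35.1, 31.5, 26.7 and 45.1 CPM on CDAHFD. Cyp2b-null males had 54.5, 52.6, 59.2 and 79.3 CPM and 50.8, 36.4, 35.9 and 54.1 CPM. The falls were 0.83 (SE 0.19, adjusted p 0.00164) without overlap and 0.48 (SE 0.18, adjusted p 0.0454) with it.

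Abcg8 fell in WT females (-0.75, SE 0.21, adjusted p 0.0131), Cyp2b-null females (-0.66, SE 0.21, adjusted p 0.0222) and WT males (-0.49, SE 0.19, adjusted p 0.0486). In Cyp2b-null males its change of -0.41 did not pass (adjusted p 0.0914). With scaling by library size only, Abcg5 and Abcg8 were not called in any of the comparisons. Abca1, the LXR target that lipidates nascent HDL, fell in Cyp2b-null females (-0.70, SE 0.17, adjusted p 0.00418), and its changes of -0.034, -0.45 and -0.36 in WT females, WT males and Cyp2b-null males did not pass (adjusted p 0.919, 0.0546 and 0.119).

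Beyond the list, 20 further genes of sterol sensing, sterol transfer and regulation were followed, of which 19 were tested in each sex. Their median diet effect was 0.014 log2 units in WT females, 0.061 in WT males, 0.017 in Cyp2b-null females and 0.065 in Cyp2b-null males. In WT females 3 of the 19 were called, 1 higher and 2 lower, where 24.1% of all genes were called. In Cyp2b-null females 4 of the 19 were called, all lower, where 30.8% of all genes were called. The genes given here were chosen after their values were seen. Srebf1, the factor of fatty acid synthesis, fell in WT mice of both sexes, with a change of -0.82 in females and -1.07 in males. Nceh1, an esterase of macrophages, rose in both, by 0.79 and 1.23. In WT males Gramd1b, a sterol transfer protein, rose by 1.35 and Osbp, which exchanges sterol between membranes, fell by 0.47. For males only such examples are given, without the number of the 19 called, and 33% of all genes were called in WT males.

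Whether the loss of the Cyp2b genes altered the list was asked on each diet and as an interaction. None of the 34 genes was called in any of these 6 comparisons by edgeR. Over all genes, 0.0756% (females) and 0.0371% (males) were called for genotype on ND, 0.0227% and 0.0297% on CDAHFD, and 0% and 0.00743% for the interaction. At an unadjusted p under 0.05, 1 and 2 of the 34 were found on ND in females and males, 2 and 2 on CDAHFD, and 3 and 3 for the interaction. The shares over all genes were 5.75% and 8.26% on ND, 5.83% and 3.62% on CDAHFD, and 6.28% and 6.07% for the interaction, in the same order. With DESeq2, and with edgeR without the low-count filter, 1 gene, Mvd, was called lower in ND-fed Cyp2b-null males.

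The intervals show how large a genotype effect these libraries could have missed. On CDAHFD, the 95% interval lay within 1 log2 unit of 0 for 33 of the 34 genes in females and for all 34 in males, and on ND for 32 in each sex. In females the estimates ran from -0.45 (Insig2) to 0.47 (Stard4) on ND and from -0.44 (Mylip) to 0.46 (Tm7sf2) on CDAHFD. In males they ran from -0.79 (Mvd) to 0.32 (Abcg1) on ND and from -0.50 (Idi1) to 0.35 (Abcg5) on CDAHFD. Mvd in ND-fed males was the farthest from 0, at -0.79 (SE 0.21, unadjusted p 0.00119, adjusted p 0.195), with overlap between the groups. In CDAHFD-fed males, Pmvk and Idi1 were lower in every Cyp2b-null library than in every WT library, at -0.48 (SE 0.18, adjusted p 1) and -0.50 (SE 0.16, adjusted p 1), 2 of the 34 genes where 2.56% of all genes had groups without overlap. In CDAHFD-fed females the genotypes did not overlap for 1 of the 34, Acat2, which was higher in every Cyp2b-null library at 0.28 (SE 0.21, adjusted p 0.832), against 2.83% of all genes. On ND they overlapped for all 34 in either sex, where 3.64% (females) and 3.87% (males) of all genes had groups without overlap. In CDAHFD-fed males 17 of the 19 synthesis genes had a negative estimate, with a median of -0.16, and in CDAHFD-fed females 14 of 19 had a positive one, with a median of 0.055. Leaving out 1 library at a time moved the median from -0.25 to -0.074 in males and from -0.044 to 0.22 in females. Its sign in females thus depended on single libraries. The synthesis genes moved together in single libraries, so these counts are not counts of separate observations.

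The interaction, the diet effect in Cyp2b-null minus that in WT mice, is the less precise measure, and its 95% interval lay within 1 log2 unit of 0 for 18 genes in females and 28 in males. Its extremes in females were Mylip at -0.72 (-1.44 to -0.0061) and Tm7sf2 at 0.74 (0.017 to 1.47). In males they were Idi1 at -0.73 (-1.21 to -0.25) and Mvd at 0.76 (0.10 to 1.42). The smallest adjusted p was 0.76 in females and 0.562 in males. The counts of 9 and 13 falling synthesis enzymes in WT and Cyp2b-null males are therefore not shown to differ between the genotypes.

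**Figure D4:**
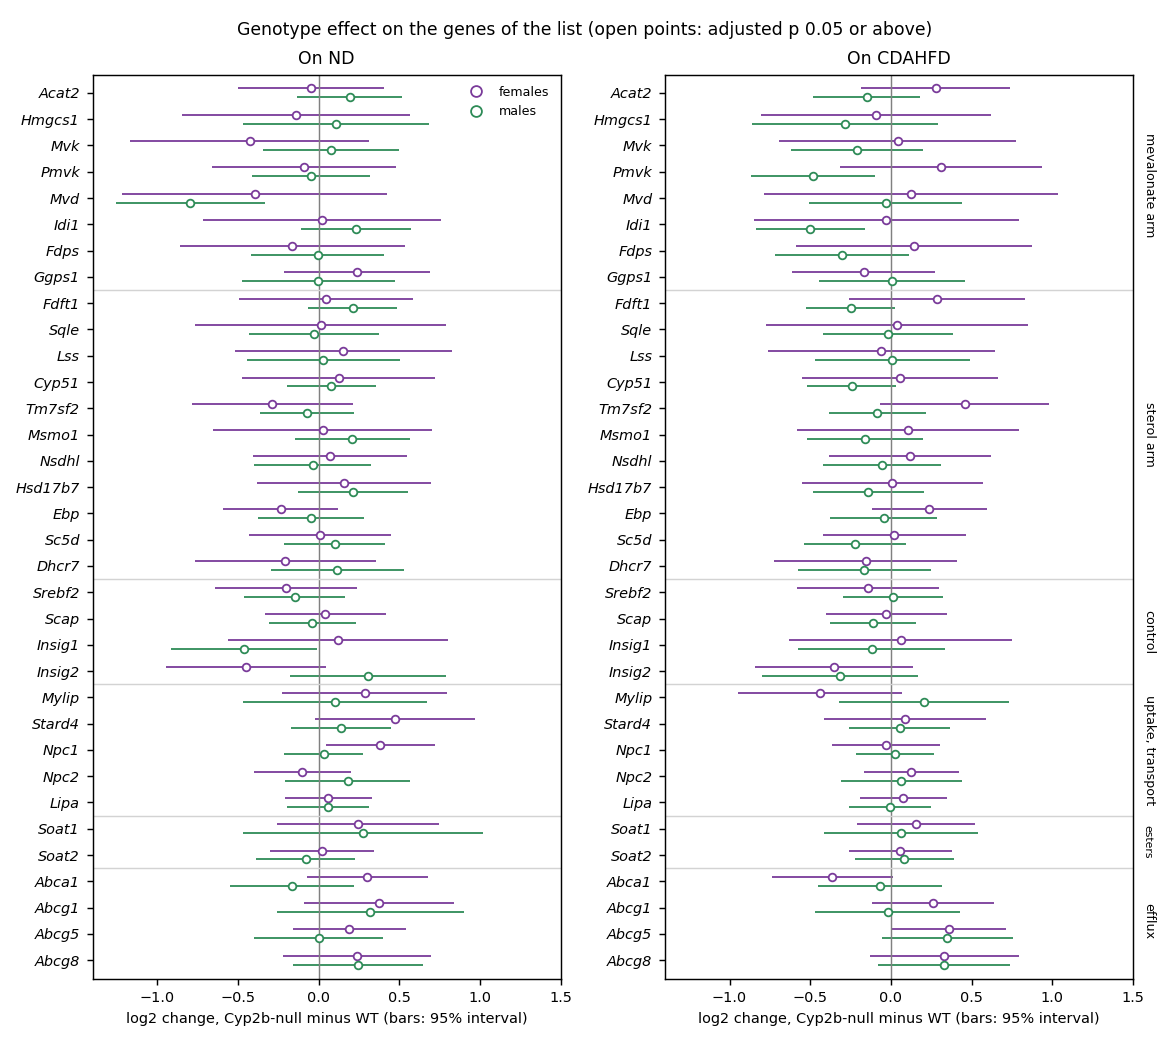
Log2 change in Cyp2b-null relative to WT livers on ND (left) and CDAHFD (right), with females in violet, males in green and bars for the 95% interval of the 34 genes. All points are open, since none passed an adjusted p of 0.05, and the estimates run from -0.79 (Mvd, ND-fed males) to 0.47 (Stard4, ND-fed females).

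Whether the diet effect differed between the sexes was tested in 1 fit of all 32 libraries, as the log2 effect in males minus that in females. In WT mice 5 of the 34 genes were called, all of them higher, that is less lowered or more raised in males, where 0.97% of 14020 genes were called (0.67% higher). They were Idi1 at 2.06 (SE 0.42, adjusted p 0.00784), Soat1 at 1.504 (SE 0.37, adjusted p 0.033), Cyp51 at 1.41 (SE 0.33, adjusted p 0.025), Fdft1 at 1.203 (SE 0.30, adjusted p 0.0389) and Nsdhl at 1.18 (SE 0.30, adjusted p 0.0418). All 19 synthesis genes had a positive difference, with a median of 1.07, and 19 of the 34 genes had an unadjusted p under 0.05, where 10.3% of all genes did. As the synthesis genes moved together in single libraries, these counts are not counts of separate observations. With scaling by library size only, 6 genes were called, all higher, and the median over the 19 was 1.13.

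The number of calls depended on single libraries. Without ND-fed WT female replicate 2, whose synthesis levels were the lowest of its group, 11 genes were called, and without replicate 3 or replicate 4 of that group, whose levels were the highest, only 1 was. Idi1 was called in each of the 32 fits that left out 1 library. Leaving out ND-fed WT female replicate 1 or ND-fed WT male replicate 2 left 3 calls, and 2 were left without CDAHFD-fed WT female replicate 2 or 4, CDAHFD-fed WT male replicate 2, 3 or 4, or ND-fed WT male replicate 1 or 4. Macrophage markers differed between the sexes in the same direction, with 3 of 7 called higher in males for the diet effect in WT mice, and their part in the difference of Soat1 was not tested.

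In Cyp2b-null mice 5 genes were called, all higher in males: Mylip at 1.44 (SE 0.35, adjusted p 0.0173), Soat1 at 1.38 (SE 0.35, adjusted p 0.0213), Cyp51 at 1.15 (SE 0.33, adjusted p 0.041), Nsdhl at 1.12 (SE 0.30, adjusted p 0.0284) and Npc1 at 0.68 (SE 0.19, adjusted p 0.0376). Over all genes 3.4% were called (2.09% higher). At an unadjusted p under 0.05, 17 of the 34 were found, against 19.2% of all genes. Among the 19 synthesis genes, which moved together in single libraries, only Ebp had a negative difference, at -0.17 (SE 0.23). In the fit without replicate 3 of the CDAHFD-fed Cyp2b-null females and replicate 4 of the males, the libraries absent from the published heat maps, 0 of the 34 were called by edgeR, and the adjusted p of these 5 was 0.0779, 0.0527, 0.0948, 0.064 and 0.108. Without the female library alone, 4 were called, 3 higher and 1 lower, and 3 of the 5 were kept. None was called without CDAHFD-fed Cyp2b-null male replicate 3, 2 without ND-fed Cyp2b-null female replicate 1 or 4 or ND-fed Cyp2b-null male replicate 2, and 3 without CDAHFD-fed Cyp2b-null female replicate 1, CDAHFD-fed Cyp2b-null male replicate 1 or ND-fed Cyp2b-null male replicate 4. Macrophage markers again moved with it, with 5 of 7 called higher in males, and so did endothelial markers, with 3 of 5 called higher and a median of 1.09 over the 5, and the part of either in these differences was not tested. In WT mice 0 of the 5 endothelial markers were called for the sex difference by edgeR, and 0 had an unadjusted p under 0.05. The genotype effect on CDAHFD did not pass a test of sex difference for any of the 34 genes, where 0.00713% of all genes did and 1 of the 34, Pmvk, had an unadjusted p under 0.05, against 3.13% of all genes.

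**Figure D5:**
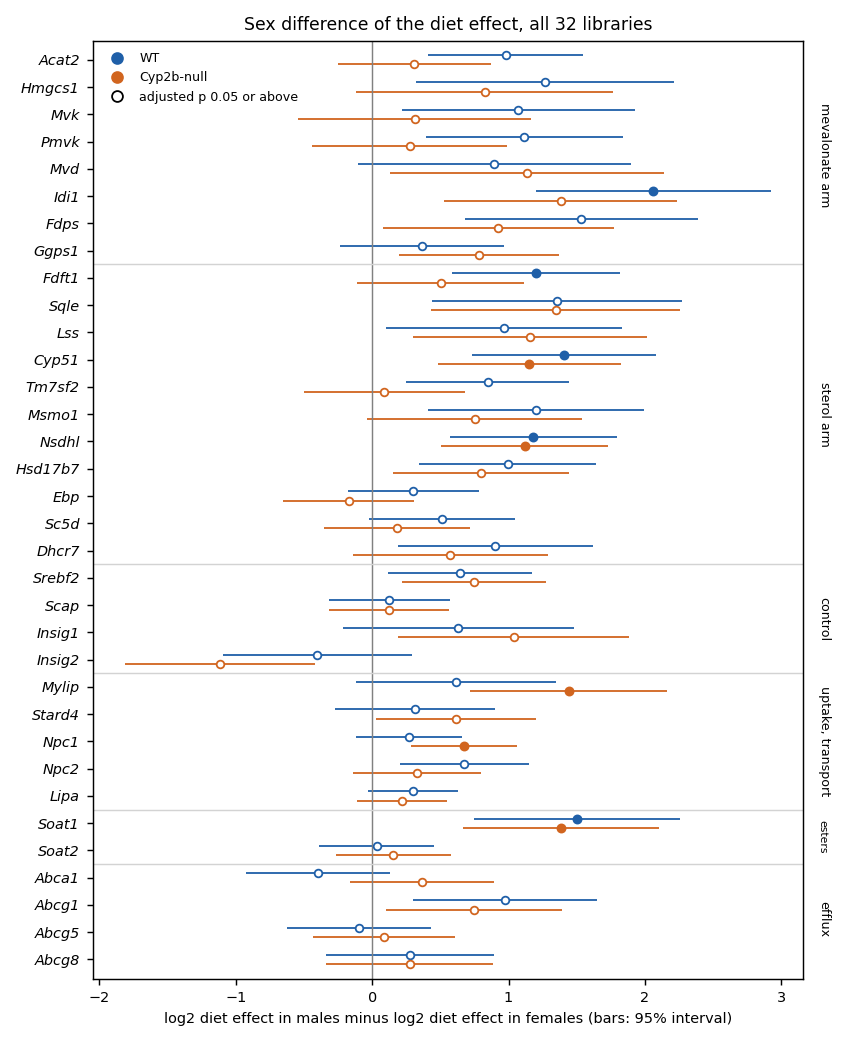
Log2 diet effect in males minus that in females for the 34 genes, with WT in blue, Cyp2b-null in orange, bars for the 95% interval and filled points for an adjusted p under 0.05. The 19 synthesis genes moved together in single libraries. All of them lie right of 0 in WT mice, where Idi1 lies farthest right at 2.06, and all but Ebp (-0.17) in Cyp2b-null mice.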

How the data were processed

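The authors trimmed reads of bulk liver libraries with Trimmomatic, aligned them to GRCm38.p6 with GSNAP, counted them per gene with Subread featureCounts and deposited raw counts in 1 table for each sex. Versions, the strand setting and the treatment of reads shared between genes are not given in the sources used here.

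From these counts, edgeR 4.0.16 (R 4.3.3) fitted quasi-likelihood models with TMM scaling to the 4 groups of each sex, and to all 8 groups for differences between the sexes. Genes passed filterByExpr (minimum count 10, minimum total 15), and p-values were adjusted by Benjamini-Hochberg over all genes tested. Each p-value sets a change against the spread between mice within groups, estimated over all groups of the fit. All 32 labelled libraries were used. Scripts were tested on simulated data. The alternatives were DESeq2 1.42.0, RLE size factors, library size only, no filter, only the groups compared, a replicate block, the libraries of the heat maps, and leaving out each library. Values of every library were printed for 22 genes, those called for genotype, interaction or sex difference and, within each role, those with the largest mean WT diet change (4, or 2 for control, efflux and esterification). The other 12 were given by their changes. Intervals were computed at 95% from the SE and the residual degrees of freedom. The test also draws on the spread of other genes, so an interval can span no change where the unadjusted p is under 0.05. The members and lists were chosen with earlier results of these data known. In no pair of groups were the correlations between same-numbered libraries all above 0.1, so numbers were not used as pairs. Results of 1 further pathway gene are not reported here.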

Additional observations from a re-analysis of the deposited data

Results flagged for a closer look

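Of 176 sets of 4 libraries tested over the 22 genes printed by library, 10 held 1 library set apart from the other 3 by Dixon's test. Chance gives about 1 in 20, so about this many flags would come by chance alone. The test weighs a gap against the range of the 4, so a flagged gap can be small. For Scap in CDAHFD-fed WT males it was 134.9 against 139.4 CPM in the nearest library. CDAHFD-fed Cyp2b-null female replicate 3 was such a library for Acat2 (68.17 CPM), Lipa (246.2 CPM) and Npc2 (194.4 CPM), and replicate 1 of that group for Nsdhl (28.55 CPM). ND-fed Cyp2b-null female replicate 2 was one for Fdft1 (124.8 CPM) and Npc1 (247.9 CPM). Scap stood at 134.9 CPM in CDAHFD-fed WT male replicate 4 and at 217.8 CPM in ND-fed WT female replicate 4. Tm7sf2 stood at 56.16 CPM in CDAHFD-fed Cyp2b-null male replicate 3 and at 209.5 CPM in ND-fed Cyp2b-null male replicate 4.

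The diet effect differed between the sexes by the interaction test in edgeR for 10 values, each a log2 effect in males minus that in females. In WT mice they were 2.06 for Idi1, 1.504 for Soat1, 1.41 for Cyp51, 1.20 for Fdft1 and 1.18 for Nsdhl. In Cyp2b-null mice they were 1.44 for Mylip, 1.38 for Soat1, 1.15 for Cyp51, 1.12 for Nsdhl and 0.68 for Npc1.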

How the results depend on the processing

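No called change reversed its direction under any alternative run. The counts of genes called in the 4 diet comparisons stayed within 1.5 times of the reported ones, and 0 remained the count for genotype and interaction, except for 1 gene in ND-fed males by DESeq2 and 1 without the low-count filter. With library size only, the median log2 change in males was -0.06445 (WT) and -0.2369 (Cyp2b-null) for synthesis and -0.09301 and -0.02547 for efflux. The median of all genes was also higher in that scaling than with TMM. Which scaling is closer to the true levels was not tested. The sex difference in WT mice gave 17 calls without the filter and 3 with only the groups compared, and that in Cyp2b-null mice gave 15 without the filter and 0 with the libraries of the heat maps, and the cause was not tested. Leaving out 1 library at a time gave 1 to 11 calls in WT and 0 to 6 in Cyp2b-null mice. Genes with few reads, such as Soat1 on ND, limit the precision of their changes.

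The replicate numbers are shared between groups in the labels, but the correlations between same-numbered libraries ran from -0.11 to 0.177 in females and from -0.185 to 0.292 in males, and in no pair of groups were they all above 0.1. Between CDAHFD-fed WT and ND-fed Cyp2b-null females they were all positive, at 0.046 to 0.0689. With a replicate block, 24, 28, 19 and 22 genes were called for diet in WT females, Cyp2b-null females, WT males and Cyp2b-null males, 5 and 4 for the sex difference in WT and Cyp2b-null mice, and 0 for genotype.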
